A study of Mus musculus with 2 samples.

Results

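The BAFF and APRIL system examined here comprised 7 genes, chosen by symbol out of the 43346 genes listed: the ligand genes Tnfsf13b (BAFF) and Tnfsf13 (APRIL), the receptor genes Tnfrsf13c (BAFF-R), Tnfrsf13b (TACI) and Tnfrsf17 (BCMA), and the adaptor genes Traf2 and Traf3. Each symbol was matched to one Ensembl gene through GENCODE M21, and all 7 were found. Total RNA had been sequenced from CH12.LX, an immortalized mouse B-cell lymphoma line of the strain B10.H-2aH-4bp/Wts, in 2 libraries that form a single group as biological replicates 1 and 2. The labels name no treatment and give no culture conditions, and nothing beyond separate biosample records says that the libraries came from separate cultures. There is therefore no treated or mutant group, the line stands for 1 tumour clone, and the only comparison of samples is one library against the other.

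BAFF and APRIL are related cytokines of the tumour necrosis factor (TNF) family, made mainly by myeloid, dendritic and stromal cells, that keep B cells and plasma cells alive. BAFF-R binds BAFF alone, while TACI and BCMA bind both ligands. In resting B cells TRAF3 and TRAF2, together with the cIAP ubiquitin ligases, mark the kinase NIK for degradation; ligand-bound BAFF-R recruits TRAF3, NIK accumulates, and the NF-kB2 precursor is processed in the alternative NF-kB pathway.

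The libraries held 49278383 (replicate 1) and 55950529 (replicate 2) estimated counts. Levels are given as TPM, a relative abundance scaled for transcript length and library size, and a gene is called detected at 1 TPM or more in both libraries. Of 21474 protein-coding genes 8895, or 41.4%, were detected. Protein-coding genes held 24.4% and 24.3% of all TPM, so their TPM values are lower than in a scale restricted to mRNA. Of the B-cell markers 8 of 8 were detected, with Cd79b at 121 and 125 TPM. Plasma-cell markers were also detected, 5 of 5, and their summed level was 431 TPM in replicate 1 and 332 TPM in replicate 2.

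Both ligand genes were close to absent, both high-level members were receptors, and both adaptors were present at moderate levels. In all, 4 of the 7 members were detected, 2 of them at 10 TPM or more in both libraries, and the other 3 lay under 0.1 TPM in both. The receptor genes of the system alone summed to 147 TPM in replicate 1 and 109 TPM in replicate 2, against 0.0400 and 0.0700 TPM for the 2 ligand genes. These are bulk RNA samples, in which fewer cells of a type and less RNA per cell cannot be told apart.

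**Figure D1:**
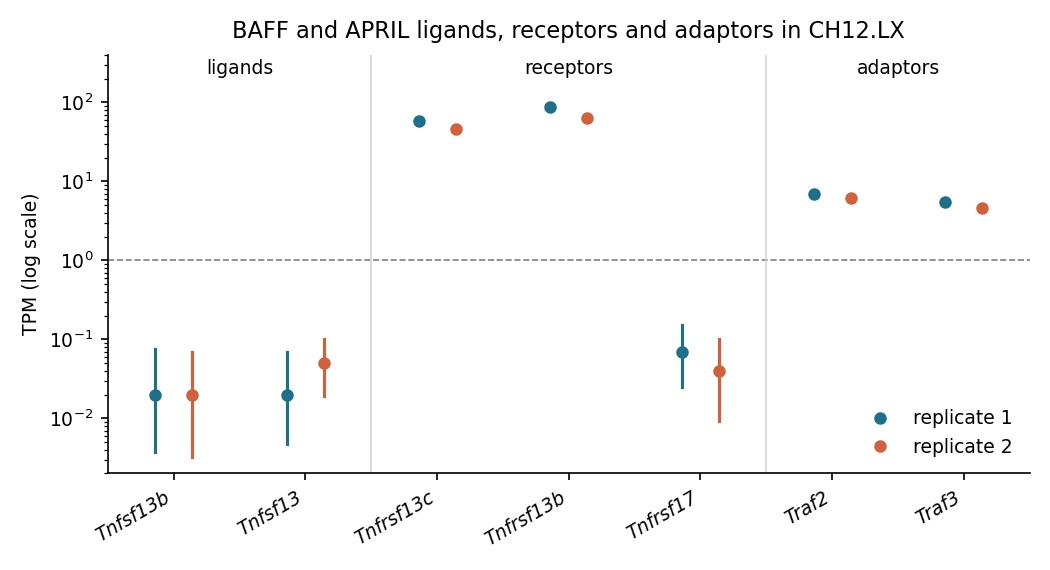
TPM of the 7 members on a log scale in replicate 1 (blue) and replicate 2 (orange), with bars for the deposited credibility bounds of each value and a dashed line at 1 TPM. Tnfrsf13b and Tnfrsf13c stand at 46.1 TPM or more, Traf2 and Traf3 between 4.59 and 6.88 TPM, and the ligand genes and Tnfrsf17 at 0.07 TPM or less.

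Among the ligands, Tnfsf13b (ENSMUSG00000031497, GRCm38 chromosome 8, 10006467 to 10039072, plus strand) encodes BAFF, the chief survival factor of mature B cells. It stood at 0.02 TPM in each library, from 2 estimated counts in each. The deposited credibility bounds ran from 0.00373 to 0.0746 TPM in replicate 1 and from 0.00319 to 0.0692 TPM in replicate 2, so the libraries overlapped. The transcript model used for the counting is 930 bases long, whereas GENCODE M21 gives 1239 bases for the same transcript, of which 870 are coding. Reads over the bases that only the longer model holds are not part of the value.

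Tnfsf13 (ENSMUSG00000089669, chromosome 11, 69682846 to 69685784, minus strand) encodes APRIL, a ligand of TACI and BCMA that sustains plasma cells. It had 0.02 TPM in replicate 1 and 0.05 TPM in replicate 2, from 3.02 and 7.59 estimated counts. The credibility bounds, 0.00479 to 0.0696 TPM and 0.0191 to 0.10 TPM, overlapped. The log2 ratio of replicate 2 over replicate 1 was 1.32, with a 95% counting interval from -0.74 to 3.87 that includes 0, and the adjusted p was 0.387 in the exact binomial test, so no difference was detectable at this depth. Its few counts are also uncertain in origin, since the readthrough gene Tnfsfm13, which joins the TWEAK gene Tnfsf12 to Tnfsf13, held 4.98 and 5.41 counts, and Tnfsf13os, annotated on the opposite strand, held 13 and 18. Whether strand was used in the counting is not given in the sources used here, and without strand the reads of antisense partners cannot be told apart.

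Most markers of the cells that are the usual sources of these ligands were not detected in the libraries. Of 11 myeloid and dendritic markers 2 were detected, Cd68, which encodes a lysosomal protein, with 17.6 and 18.6 TPM, and Adgre1 at 4.63 and 6.38 TPM. Of the other 9, Csf1r was the highest at 0.28 TPM in both libraries, followed by Flt3 at 0.18 and 0.19 TPM. Lyz2 had 0.02 and 0.01 TPM, and Cd14, Csf3r and S100a8 were listed at 0 in both libraries. The list of 11 summed to 22.8 and 25.5 TPM. None of 4 stromal and endothelial markers was detected, at summed levels of 0.110 and 0.160 TPM. Of 4 T-cell markers 1 was detected, Cd3g at 2.69 and 3.04 TPM, while Cd3e was listed at 0.

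Among the receptors, TACI had the highest gene TPM, BAFF-R followed, and BCMA was nearly absent. The order of TACI and BAFF-R reversed when only the transcript with the most counts of each gene was used, at TACI to BAFF-R ratios of 0.783 and 0.652 in replicates 1 and 2. Of the summed TPM of the 3 receptor genes, Tnfrsf13b took 60.1% in replicate 1 and 57.8% in replicate 2, Tnfrsf13c took 39.8% and 42.2%, and Tnfrsf17 took 0.0475% and 0.0366%.

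Tnfrsf13b (ENSMUSG00000010142, chromosome 11, 61126755 to 61149372, plus strand) encodes TACI, a receptor for both ligands that takes part in T-independent antibody responses and class switching. Its level was 88.7 TPM in replicate 1 and 63.2 TPM in replicate 2, or 75.9 ± 18 TPM (SD, n = 2), and it ranked 428th among protein-coding genes by mean TPM. Replicate 1 was the higher library, and the credibility bounds, 85.6 to 91.5 TPM and 60.9 to 65.7 TPM, did not overlap. The 11842 and 8887 counts gave a log2 ratio of -0.51, with a 95% counting interval from -0.55 to -0.47. The adjusted p was 2.61e-141 in the exact binomial test, which covers counting error only and has 1 library a side.

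The gene value of Tnfrsf13b was the sum of transcript models that differ widely in length. The full-length Tnfrsf13b-201, 2556 bases, had 39.1 and 26.0 TPM, and the 364-base Tnfrsf13b-207, a model annotated as incomplete at its 3′ end, had 39.6 and 24.7 TPM. In TPM they were thus nearly level, at 44.1% and 41.2% of the gene for Tnfrsf13b-201 and 44.6% and 39.1% for Tnfrsf13b-207. In estimated counts they were far apart: Tnfrsf13b-201 held 87.4% and 84.4% of the gene's counts and Tnfrsf13b-207 held 7.58% and 6.66%. TPM divides by length, so the short model turned few reads into a large part of the level. Tnfrsf13b-205, annotated without a coding sequence, took 8.47% and 13.6% of TPM, and the other 4 models stayed under 6% each.

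Inside the coding sequence Tnfrsf13b-207 lacks a stretch of 156 bases, or 52 codons, at chr11:61141292-61141447 (GRCm38, plus strand). The stretch is not the only difference, since Tnfrsf13b-207 has 221 annotated coding bases and Tnfrsf13b-201 has 747. The share of Tnfrsf13b-207 is therefore not the share of a form that lacks the stretch alone. The receptors of this family bind their ligands through cysteine-rich domains, and the stretch holds 5 of the 21 cysteine codons among the 249 codons of Tnfrsf13b-201. Its length is a multiple of 3. The sequence of exon 3 of Tnfrsf13b-201, chr11:61141261-61141491, is shown because it tells the most abundant models apart; the capitals mark the stretch.
Tnfrsf13b exon 3: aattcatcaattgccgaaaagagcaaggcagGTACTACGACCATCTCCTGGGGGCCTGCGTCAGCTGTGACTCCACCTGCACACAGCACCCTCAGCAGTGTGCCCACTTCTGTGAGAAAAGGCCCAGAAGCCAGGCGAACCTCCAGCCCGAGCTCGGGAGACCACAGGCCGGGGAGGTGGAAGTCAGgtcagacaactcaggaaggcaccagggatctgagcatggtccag

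Tnfrsf13c (ENSMUSG00000068105, chromosome 15, 82221743 to 82224369, minus strand) encodes BAFF-R, the receptor through which BAFF supports the survival of mature B cells. Its libraries gave 58.7 TPM (replicate 1) and 46.1 TPM (replicate 2), or 52.4 ± 8.93 TPM (SD, n = 2), and ranked 609th among protein-coding genes. Replicate 1 was again the higher library and the credibility bounds, 57.4 to 59.6 TPM and 45.0 to 46.9 TPM, did not overlap. From 11410 and 9748 counts the log2 ratio was -0.33, with a counting interval from -0.37 to -0.29 and an adjusted p of 4.84e-59 in the exact binomial test.

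The Tnfrsf13c models are of similar length, and their shares hardly depended on the measure. Tnfrsf13c-201 held 85.1% and 86.5% of TPM and 84.5% and 86.0% of counts. Tnfrsf13c-202 held 14.9% and 13.5% of TPM. The credibility bounds of Tnfrsf13c-202, 8.0 to 9.43 TPM in replicate 1 and 5.69 to 6.79 TPM in replicate 2, lie far above 0. Tnfrsf13c-202 has 200 codons and Tnfrsf13c-201 has 175, because the former extends exon 1 by 108 bases, or 36 codons, and lacks 33 bases, or 11 codons, at the start of exon 3. Both changes keep the reading frame and neither stretch holds any of the 4 cysteine codons that each transcript carries. The stretches, which tell the models apart, are given in transcript orientation in capitals with 15 flanking bases on each side, the first at chr15:82224060-82224167 and the second at chr15:82223244-82223276, both on the minus strand.
Tnfrsf13c-202 end of exon 1: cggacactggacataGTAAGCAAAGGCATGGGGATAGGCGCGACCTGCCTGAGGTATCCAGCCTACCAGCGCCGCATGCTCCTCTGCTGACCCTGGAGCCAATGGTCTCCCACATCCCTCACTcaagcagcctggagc
Tnfrsf13c-201 start of exon 3: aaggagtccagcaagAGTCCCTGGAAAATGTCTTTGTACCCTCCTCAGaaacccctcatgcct

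Tnfrsf17 (ENSMUSG00000022496, chromosome 16, 11313812 to 11320074, plus strand) encodes BCMA, the receptor that long-lived plasma cells depend on. It had 0.07 TPM in replicate 1 and 0.04 TPM in replicate 2, from 5 and 3 counts. The credibility bounds, 0.0251 to 0.151 TPM and 0.00920 to 0.102 TPM, overlapped, and the summed counts were under the minimum of 10 for the comparison of libraries. The plasma-cell markers in the same libraries were far higher, with Jchain at 176 and 114 TPM and Mzb1 at 215 and 188 TPM, while Prdm1, which encodes the plasma-cell regulator BLIMP1, had 2.64 and 1.94 TPM.

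**Figure D2:**
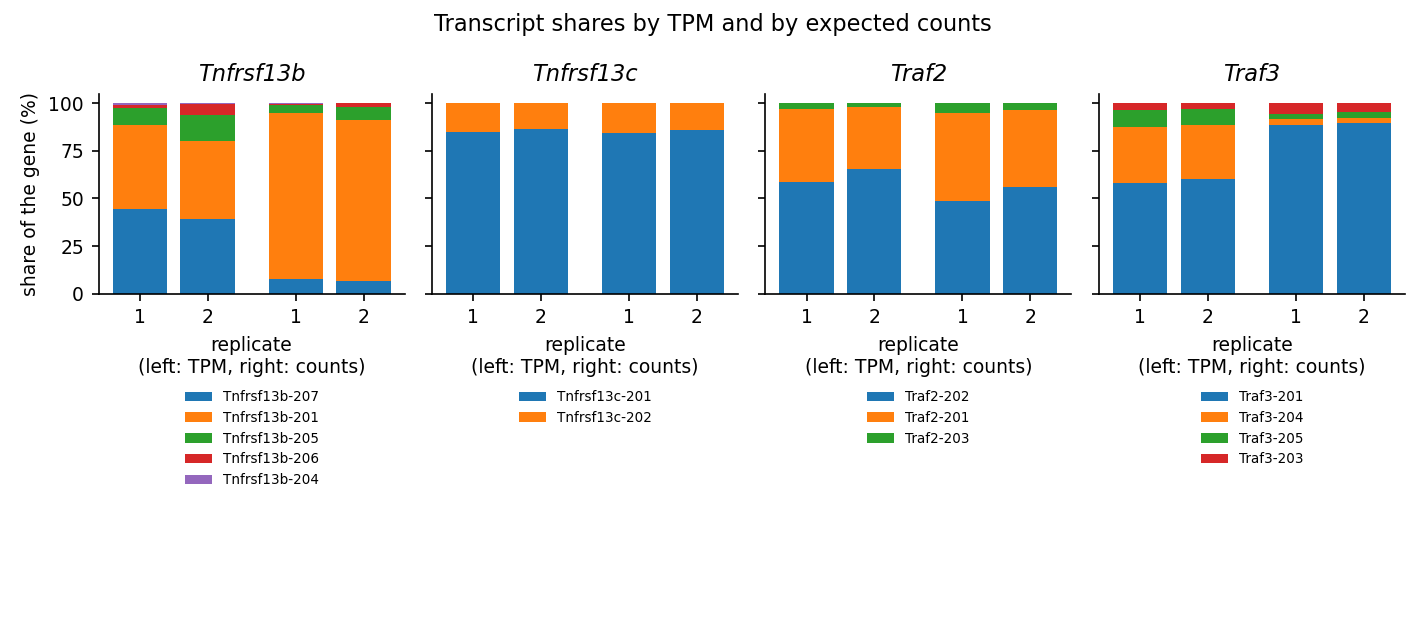
Shares of the transcript models of the 4 detected members, as percent of the gene's TPM (left pair of bars) and of its estimated counts (right pair) in replicates 1 and 2. For Tnfrsf13b and Traf3 the short models Tnfrsf13b-207 and Traf3-204 take 39.1% and 28.3% of TPM or more but 7.58% and 3.11% of counts or less, while the Tnfrsf13c shares are nearly the same by both measures.

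The adaptor genes were detected, at lower levels than the BAFF-R gene. Traf2 (ENSMUSG00000026942, chromosome 2, 25517982 to 25546940, minus strand) encodes the adaptor that brings the cIAP ligases to TRAF3 and NIK. Its level was 6.88 TPM in replicate 1 and 6.12 TPM in replicate 2, or 6.5 ± 0.537 TPM (SD, n = 2). The credibility bounds, 6.49 to 7.23 TPM and 5.78 to 6.41 TPM, did not overlap, with replicate 1 higher. From 1821 and 1711 counts the log2 ratio was -0.19, with a counting interval from -0.28 to -0.09 and an adjusted p of 0.000338 in the exact binomial test.

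Traf3 (ENSMUSG00000021277, chromosome 12, 111166370 to 111267153, plus strand) encodes the adaptor that binds NIK and restrains the alternative pathway. It had 5.49 TPM in replicate 1 and 4.59 TPM in replicate 2, or 5.04 ± 0.636 TPM (SD, n = 2). Here the credibility bounds, 4.97 to 5.99 TPM and 4.17 to 5.09 TPM, overlapped. The 2759 and 2562 counts gave a log2 ratio of -0.21, with a counting interval from -0.28 to -0.13 and an adjusted p of 9.12e-07 in the exact binomial test. The binomial test does not cover the uncertainty of assigning reads to models, which the credibility bounds do.

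Traf2 was divided between a pair of coding models. Traf2-202 held 58.4% and 65.5% of TPM and Traf2-201 held 38.5% and 32.5%, while Traf2-203, a retained-intron model, held 3.10% and 1.98%. The models differ in the coding sequence by 21 bases, or 7 codons with 1 cysteine codon, at the end of exon 2, at chr2:25538845-25538865 (minus strand), which only Traf2-202 holds. Of the 2 coding models together, Traf2-202 made up 63.6% ± 4.64 of TPM (SD, n = 2) and 54.7% ± 4.96 of counts. These models also differ outside the coding sequence, with 2151 bases in Traf2-202, 1524 of them coding, and 3044 in Traf2-201, 1503 of them coding. The shares are those of whole models and do not measure the use of the 21 bases alone.

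Traf3-201 was the main full-length form of Traf3. It held 58.3% and 60.0% of TPM and 88.3% and 89.4% of counts, and the 645-base Traf3-204, another model that is incomplete at its 3′ end, held 29.2% and 28.3% of TPM but 3.11% and 2.93% of counts. In the coding sequence, Traf3-201 differs from Traf3-203 by an exon of 75 bases, or 25 codons, at chr12:111251130-111251204 (plus strand). The exon holds 3 of the 28 cysteine codons of Traf3-201. The sequence of Traf3-202 was not compared, but its coding length of 1626 bases is that of Traf3-203. Among these 3 full-length models, Traf3-201 with the exon made up 94.1% and 94.8% of TPM. Both stretches are shown in capitals with 15 flanking bases on each side, since they set coding models of the adaptors apart.
Traf2-202 end of exon 2: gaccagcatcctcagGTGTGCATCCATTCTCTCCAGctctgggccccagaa
Traf3-201 exon: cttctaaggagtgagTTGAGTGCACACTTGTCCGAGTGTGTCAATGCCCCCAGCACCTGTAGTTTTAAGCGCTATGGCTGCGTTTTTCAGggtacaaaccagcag

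By mean TPM the order was Tnfrsf13b, Tnfrsf13c, Traf2, Traf3, Tnfrsf17, Tnfsf13 and Tnfsf13b. The ranges over the libraries of each of the first 4 genes and its next neighbour did not overlap. Tnfrsf17, Tnfsf13 and Tnfsf13b overlapped with their neighbours and have no order beyond their spread. The gene TPM of Tnfrsf13b was 1.51 times that of Tnfrsf13c in replicate 1 and 1.37 times in replicate 2. When only the transcript with the most counts of each gene was used, an alternative added after the data were seen, Tnfrsf13c came first, as given above. Which of these receptors stood higher thus depended on how the shorter models were counted. Traf2 stayed above Traf3 by both measures, at 1.25 and 1.33 times by gene TPM and 1.26 and 1.46 times by the main transcript. Tnfrsf13c exceeded Traf2 by 8.54 and 7.53 times.

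All 4 detected members were lower in replicate 2. A gene was called different between the libraries at an adjusted p under 0.05 in the exact binomial test with a ratio of at least 2. Of all 15438 genes tested 737 were called, or 4.77%. Of the 5 members tested 0 were called in the exact binomial test, and 4 had an unadjusted p under 0.05, as did 54.6% of all genes tested. Without the ratio, Tnfrsf13b, Tnfrsf13c, Traf2 and Traf3 passed the adjusted threshold, all lower in replicate 2, while 25.1% of all genes passed it as lower in replicate 2 and 50.4% in either direction. The median log2 ratio was -0.21 over the 5 tested members and 0.01 over all genes tested.

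Relative to other expressed genes the receptors lay toward the lower end. Over the 9086 protein-coding genes whose mean reached 1 TPM the central 95% of log2 ratios ran from -0.52 to 0.73. Tnfrsf13b, at -0.51, lay just inside this range, with 2.72% of these genes at or below it, and 11.4% lay at or below Tnfrsf13c. The plasma-cell markers moved in the same direction: 5 of 5 passed the adjusted threshold as lower in replicate 2, and their median log2 ratio was -0.43. Of the 8 B-cell markers 3 passed as higher and 3 as lower. The part of these in the members' ratios was not tested.

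**Figure D3:**
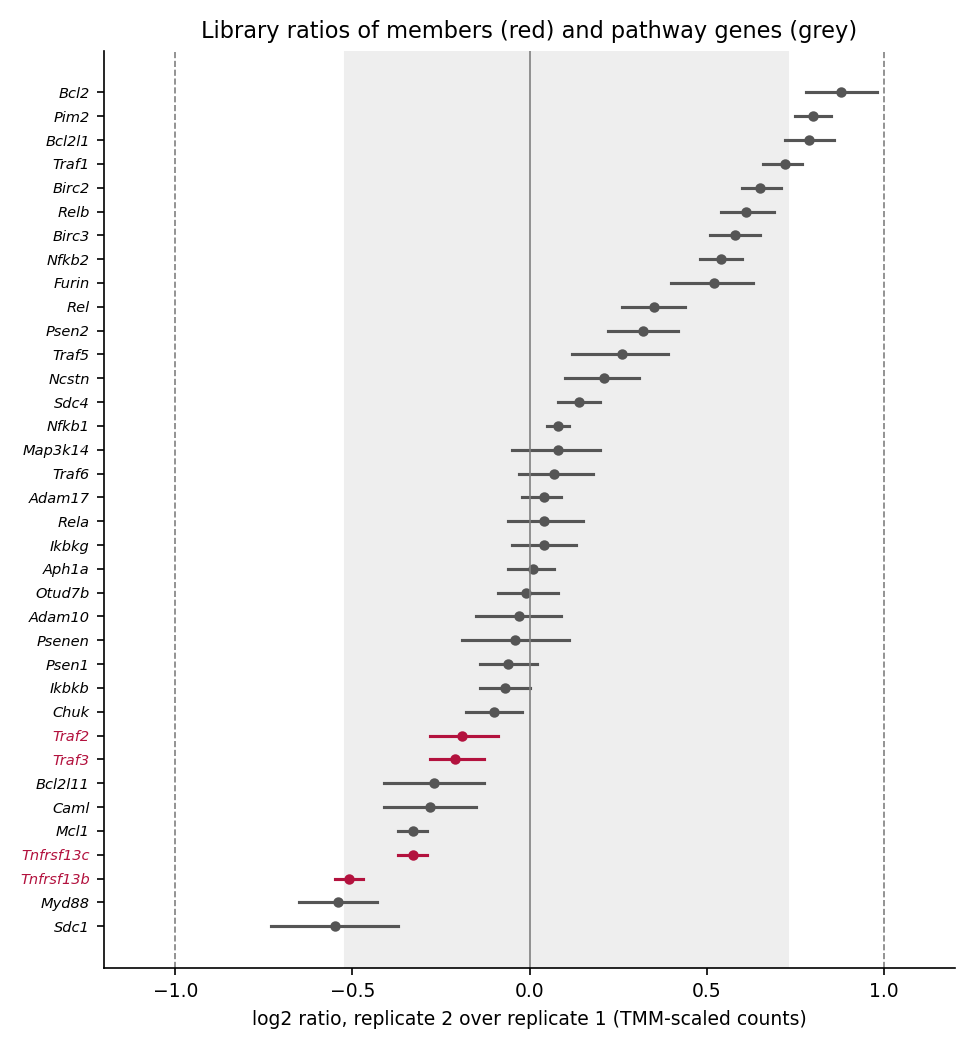
Log2 ratio of replicate 2 over replicate 1 from scaled counts, with 95% counting intervals, for the 4 detected members (red) and 32 other pathway genes (grey). Dashed lines mark a ratio of 2 either way and the shaded band the central 95% of protein-coding genes whose mean reached 1 TPM, from -0.52 to 0.73; the members lie between -0.51 and -0.19, and no gene shown reaches a ratio of 2.

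Transcripts of the machinery around the receptors were detected throughout. All 32 pathway genes outside the 7 members were detected, 13 of them at 10 TPM or more in both libraries. Of all protein-coding genes 41.4% were detected, but the pathway list was chosen with earlier results of these data known. The highest were Nfkb1, which encodes the NF-kB p105 precursor, at 58.4 and 61.5 TPM, Pim2, a survival kinase gene, at 24.7 and 42.5 TPM, Mcl1, an anti-apoptotic BCL2 relative, at 29.0 and 26.3 TPM, and Traf1 at 20.3 and 33.3 TPM. The lowest were Map3k14, which encodes NIK, at 2.37 and 2.36 TPM, Adam10, a protease that sheds surface receptors, at 2.31 and 2.24 TPM, the pro-apoptotic Bcl2l11 (BIM) at 2.39 and 1.90 TPM, and Sdc1, a proteoglycan that binds APRIL, at 2.02 and 1.44 TPM. NIK mRNA was thus lower than that of both adaptors that restrain it, in both libraries.

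Unlike the detected members, most pathway genes that passed the adjusted threshold had the higher value in replicate 2: 15 were higher and 6 lower, and the median log2 ratio was 0.08. Of all genes tested 25.2% passed as higher and 25.1% as lower. The counts by role below are small and are given as a description. The exact binomial test called 0 of the 32 at a ratio of 2, against 4.77% of all genes, and 22 had an unadjusted p under 0.05, against 54.6% of all genes. The 32 were all detected, while all genes tested include those with as few as 10 summed counts, so the sets are unlike in depth. The widest ratios were those of the anti-apoptotic genes Bcl2, at 1.83 and 3.25 TPM and a log2 ratio of 0.88, and Bcl2l1, at 11.6 and 19.4 TPM and 0.79, with Pim2 at 0.80 between them. By role, 2 of the 4 genes that control NIK passed as higher, the cIAP genes Birc2 (14.4 and 23.3 TPM, log2 ratio 0.65) and Birc3 (12.3 and 16.1 TPM, 0.58), and none as lower. Map3k14, the NIK gene itself, had a log2 ratio of 0.08 and did not pass. Of the 8 IKK and NF-kB genes 4 passed as higher and 1 as lower. Nfkb2 (10.5 and 15 TPM, 0.54) and Relb (9.11 and 13.8 TPM, 0.61), which encode the subunits of the alternative pathway, were higher. Rel (0.35) and Nfkb1 (0.08) also passed as higher, and Chuk (-0.10) passed as lower. Of the 5 genes listed for survival, which include the pro-apoptotic Bcl2l11, 3 passed as higher and 2 as lower. The 2 lower were the anti-apoptotic Mcl1 (-0.33) and Bcl2l11 (-0.27). Of 7 genes of receptor shedding 2 passed as higher and none as lower, and of 5 other adaptors 2 as higher and 2 as lower. Among the 3 genes of ligand processing and binding, the convertase gene Furin and Sdc4 passed as higher and Sdc1 as lower.

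Within the TRAF family, all 7 genes were detected, and Traf2 and Traf3 came after Traf7, Traf1, Traf4 and Traf5 by mean TPM. Traf7 stood at 31.0 and 29.7 TPM, Traf1 at 20.3 and 33.3, Traf4 at 11.6 and 13.4, Traf5 at 7.30 and 9.14, and Traf6 at 2.37 and 2.56. Traf2 and Traf3 were the 2 that passed the adjusted threshold as lower in replicate 2, and 3 others passed as higher.

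Among the TNF receptor genes listed, those of TACI and BAFF-R had the highest gene TPM in both libraries. Of 24 other TNF receptor genes 8 were detected, and the highest were Cd40, the receptor of T-cell help, at 36.7 and 36.3 TPM, Tnfrsf14 at 15.6 and 27.4 TPM and Tnfrsf18 at 12.6 and 18.1 TPM. Each of these levels lay below the gene TPM of Tnfrsf13b and Tnfrsf13c in the same library. For Tnfrsf13b this place depended on the short models: its full-length transcript Tnfrsf13b-201 alone, at 39.1 and 26.0 TPM, was above the gene TPM of Cd40 in replicate 1 but below those of Cd40 and Tnfrsf14 in replicate 2. Of 16 other TNF ligand genes 8 were detected, with Cd70 at 116 and 231 TPM, Tnfsf9 (4-1BB ligand) at 64.2 and 81.0 TPM and Ltb (lymphotoxin beta) at 29.0 and 35.9 TPM, while Tnfsf13b and Tnfsf13 stayed at 0.05 TPM or less.

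**Figure D4:**
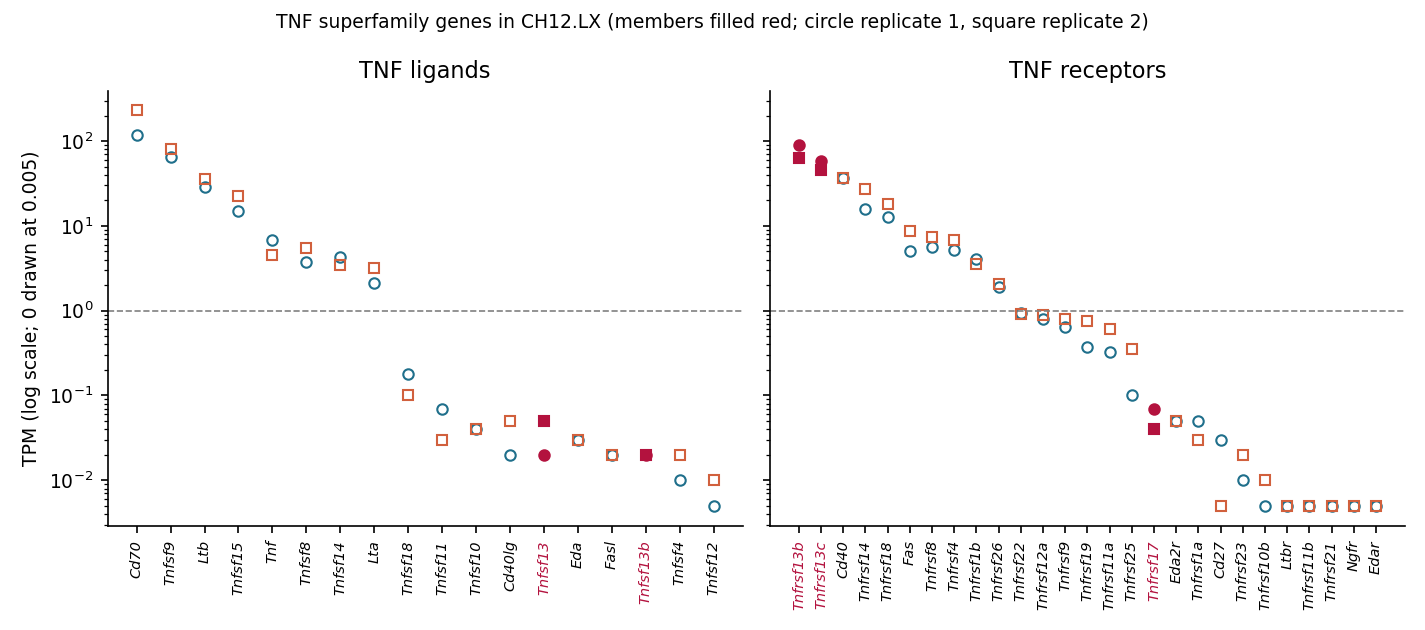
TPM on a log scale of TNF ligand genes (left) and TNF receptor genes (right), with circles for replicate 1, squares for replicate 2, members in filled red, values of 0 drawn at 0.005 and a dashed line at 1 TPM. Tnfrsf13b and Tnfrsf13c have the highest gene TPM of the receptor genes in both libraries, which for Tnfrsf13b includes the 364-base model Tnfrsf13b-207 (39.6 and 24.7 TPM), while Tnfsf13b and Tnfsf13 lie at 0.05 TPM or less among the ligand genes that were not detected.

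The genes with levels most like each member were sought among the 73 other genes of the pathway, TRAF and TNF lists, with Sdc1 left out as a plasma-cell marker, by the distance of log2(TPM + 0.1) over the 2 libraries, which all genes share. The nearest to Tnfrsf13c was Nfkb1 (distance 0.41) followed by Cd40 (0.76), and the nearest to Tnfrsf13b were Tnfsf9 (0.59) and Nfkb1 (0.60). Traf2 lay nearest to Myd88 (0.28), which encodes an adaptor that TACI can also use, and Rel (0.37). Traf3 lay nearest to the NF-kB subunit gene Rela (0.19) and Tnf (0.30). The members near 0 were matched by other genes near 0: Tnfsf13b by Fasl (0.00) and Tnfrsf23 (0.13), Tnfsf13 by Cd40lg (0.00) and Eda (0.24), and Tnfrsf17 by Tnfsf11 (0.11) and Eda2r (0.21). With 2 libraries the distance reflects level almost alone.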

How the data were processed

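Total RNA-seq tables of 2 CH12.LX libraries were used, each with gene tables for the M2, M3 and M4 annotations and an M4 transcript table, all on mm10, per the labels and file headers. No aligner, quantifier, version or use of strand is given in the sources used here. The authors deposited expected counts (estimated counts per gene or transcript), TPM and, for transcripts, the percent of the gene's TPM, per the file headers. The deposited FPKM and posterior mean TPM served in alternatives, and the deposited credibility bounds of TPM were printed as given. M4 was the main table. Rows that name no gene held 28 and 29.99 counts (5.68e-05% and 5.36e-05%) and were left out. Of 43346 gene identifiers 42462 matched GENCODE M21 (GRCm38, the same assembly), the source of symbols, coordinates and printed sequences. The gene listed as Camlg was matched as Caml through RefSeq synonyms.

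Expected counts were rounded and scaled with TMM factors (1.03 and 0.971) from edgeR 4.0.16 in R 4.3.3. Genes with at least 10 summed counts were compared by an exact conditional binomial test, two-sided with the smaller tail doubled, with Benjamini-Hochberg adjustment over all genes tested. Its p-values speak for these libraries and their counting error, not for conditions. The test was checked on simulated counts that held only counting error and set fold changes. That check does not cover other variation between libraries. Python 3.11.15, scipy 1.17.1 and pandas 2.3.3 were used.

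The genes named were all members, the 4 highest, the 4 lowest and the 3 widest-ratio pathway genes, all TRAF genes, the 3 highest of each TNF list and the 2 nearest genes of each member. Transcripts at 10% or more of TPM in both libraries were also named. Other genes and transcripts were named after their values were seen. Members and lists were chosen with earlier results of these data known. Alternatives changed the annotation release, TPM column, threshold, scaling, count filter and pseudocount, or left out a library.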

Additional observations from a re-analysis of the deposited data

How the results depend on the processing

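The direction of the ratios of Tnfrsf13b, Tnfrsf13c, Traf2 and Traf3 held under all 7 alternatives run, which changed the scaling (DESeq2 1.42.0 size factors or library totals), the count filter, the annotation release or used TPM with a pseudocount. All of them used the same 2 libraries, and the counts of these genes hardly differed between releases, so they are no independent check of the direction. The log2 ratios ranged from -0.60 to -0.48 for Tnfrsf13b, -0.41 to -0.33 for Tnfrsf13c, -0.27 to -0.15 for Traf2 and -0.29 to -0.21 for Traf3. The ratio of Tnfsf13, 1.32 and not past the threshold, was 0.32 and 0.04 from TPM with a pseudocount of 0.1 and 1, which exceeds its level. At a threshold of 10 TPM, 2 members and 13 pathway genes were detected, in place of 4 and 32 at 1 TPM; a stricter threshold can only lower these numbers. At a ratio of 1.5, 6 pathway genes and 0 members were called, in place of 0 and 0 at a ratio of 2. A looser ratio can only raise these numbers. The share of all genes called at 1.5 was not computed, so the 6 have no background to be read against. Leaving out either library left 4 members and 32 pathway genes detected. The transcripts of members at 10% or more numbered 11 by TPM, 9 by counts and 12 by posterior mean shares, and from 11 to 12 with one library left out. Without replicate 1 Tnfrsf13b-205 reached that share. The mean level of Tnfsf13b was 0.0350 TPM in the posterior mean column against 0.0200, and the share of Tnfsf13-201 was 66.8% in place of 100%, both from fewer than 10 counts in a library. With 2 to 8 counts a library, depth sets no more than an upper bound for Tnfsf13b, Tnfsf13 and Tnfrsf17. No paired analysis was possible because the series has a single group.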
